A study of Mus musculus with 6 samples.

Results

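The genes described here are 10 members of the extracellular proteolysis system of fibroblasts: the tissue inhibitors of metalloproteinases Timp1, Timp2 and Timp3, the membrane proteases Adam12 and Adam19, the secreted proteases Adamts1 and Adamts5, and the plasminogen activator genes Plau, Plaur and Plat. They were named by gene symbol, with earlier results of these data known, and all 10 were found among the 19865 symbols of the count tables. Levels were measured by 3'SAGE-seq, which reads and counts 1 tag from the 3' part of polyA transcripts, in 3 trSrebf1 and 3 control libraries of mouse lung fibroblasts. The donor cells of both groups were primary lung fibroblasts of Col1a2-GFP transgenic mice, in which the Col1a2 promoter drives a green reporter, on a C57BL/6 background. The trSrebf1 cells carried a retrovirus for the active form of Srebf1c, whose expression depends on doxycycline, and the control cells a control vector, with hLNGFR, a human surface receptor, as the vector marker. Host C57BL/6 mice of both groups had received 2 mg/kg of bleomycin, which injures the lung and leads to fibrosis. Cells were placed in the airways on day 5, doxycycline started on day 7, and live donor cells were sorted on day 10 by reporter and hLNGFR, after removal of cells with leukocyte, endothelial, epithelial, pericyte or erythroid surface markers. The labels give no ages, and name no separate animals or cultures for the replicates, so that p-values measure the spread between these libraries only.

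TIMPs bind and block metalloproteinases in the matrix. Among the TIMPs, Timp3 stands apart by binding to the matrix itself and by inhibiting ADAM and ADAMTS proteases as well as matrix metalloproteinases. ADAM proteases sit in the cell membrane and release the outer parts of growth factors and receptors, and ADAMTS proteases are secreted and cut matrix proteins such as the proteoglycans versican and aggrecan. The plasminogen activators, urokinase (Plau) and tissue-type activator (Plat), convert plasminogen into plasmin, and Plaur is the cell surface receptor of urokinase. In lung fibrosis this system is known for its part in matrix turnover and fibrin removal.

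In trSrebf1 fibroblasts the group split. Timp3, Adam12, Adam19, Adamts1 and Plau were lower than in control fibroblasts, Plat was higher, and Timp1, Timp2, Adamts5 and Plaur did not pass the threshold. These 5 lower and 1 higher of 10 genes stand beside 13.0% lower and 17.2% higher, or 30.2% in either direction, of the 10194 genes tested (p from edgeR's quasi-likelihood test, with the Benjamini-Hochberg method applied over all tested genes and a threshold of 0.05). The median log2 fold change, trSrebf1 minus control, was -0.74 over the 10 genes and -0.01 over all tested genes. Plau and Plaur reached the minimum count of the test in all 3 control libraries, but in only 2 trSrebf1 libraries for Plau and 0 for Plaur. Over the 8 other genes the median was -0.41, with 4 lower and 1 higher. The 5 lower became 3 without control replicate 3 or without trSrebf1 replicate 3, since the calls of Adam19 and Plau were lost, and Adam19 lost its call in 6 of 14 alternatives. For 7 of the 10 genes every trSrebf1 library lay on the same side of every control library, as it did for 43.4% of all tested genes. Without Plau and Plaur this held for 5 of 8 genes. The largest fold change among the 10 was that of Adam12, 2.87-fold lower in trSrebf1 cells.

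**Figure D1:**
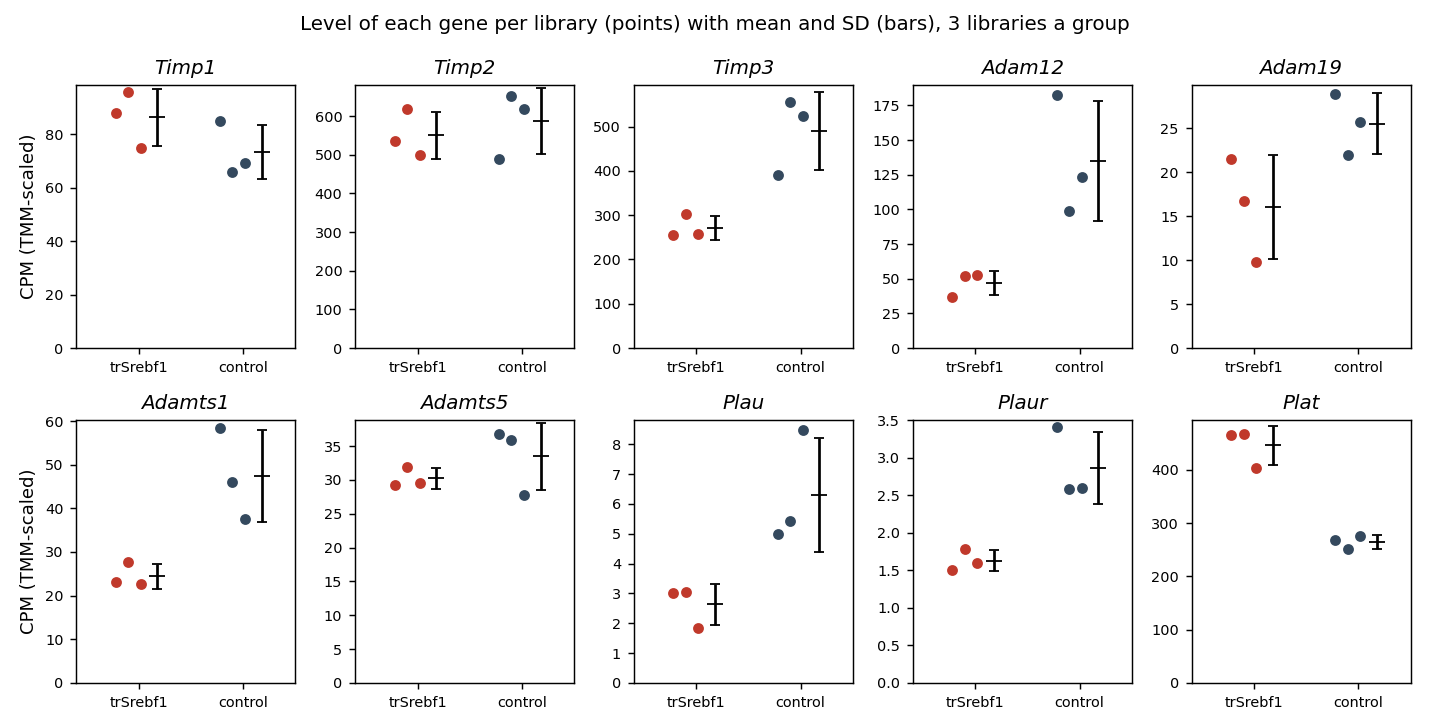
Level of each of the 10 genes in every library, in CPM (counts scaled to a common library total, with TMM factors), on linear axes that start at 0. Points are libraries, trSrebf1 left and control right, and bars are the mean with its SD over 3 libraries. Timp3, Adam12, Adam19, Adamts1, Plau and Plaur lie lower in every trSrebf1 library than in any control library, and Plat lies higher.

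Library totals ranged from 3675146 to 4688196 tags. Srebf1 (tags from the gene, the transgene or both) stood at 28.2 ± 3.30 CPM in trSrebf1 and 7.11 ± 1.72 CPM in control libraries (SD, n = 3 each; adjusted p = 2.88e-06). Its 3' end overlaps that of Rai1 on the other strand over 109 bases, and Rai1 was itself higher, at 553 CPM in trSrebf1 and 290 CPM in control libraries (adjusted p = 1.36e-06), so the Srebf1 value is uncertain where strand use is unknown. The fibroblast markers Col1a1, Col1a2, Col3a1, Pdgfra, Dcn and Lum were all detected, but 5 of 6 were lower in trSrebf1 cells, Pdgfra at 4.46 and 10.6 CPM in trSrebf1 and control. Macrophage and endothelial markers were low. The summed levels of 5 macrophage genes ranged from 0.914 to 2.79 CPM in trSrebf1 and from 1.03 to 4.72 CPM in control libraries. Those of 4 endothelial genes ranged from 0.430 to 2.06 CPM in trSrebf1 and from 0.944 to 1.57 CPM in control libraries. Epithelial markers (7 genes) summed to 13.7 ± 6.85 CPM in trSrebf1 and 10.3 ± 3.10 CPM in control libraries. Mesothelial markers (4 genes) summed to 6.88 ± 2.55 and 9.40 ± 2.72 CPM in that order (SD, n = 3 each). Cdh1, an epithelial marker, had 14, 2 and 11 tags in trSrebf1 and 0, 1 and 0 tags in control libraries. Krt8, another epithelial marker, went the other way, with 0, 1 and 0 tags in trSrebf1 and 1, 3 and 2 tags in control libraries. Epcam, Sftpc, Sftpb, Scgb1a1 and Krt18 overlapped between the groups. The part of these markers in the results was not tested. The neutrophil marker Csf3r, 1 of 5 on its list that the tables hold, was detected in every library, at 8.39 CPM in trSrebf1 and 8.43 CPM in control libraries, and its part in the results was not tested. Control replicate 1 stood further from the other control libraries than any other pair within a group, with chi-square values of 7.98 and 8.13 per degree of freedom, where tag sampling alone gives about 1, against 4.52 to 5.84 for the other pairs. Values without it are given for the members called in either direction, and where leaving it out changed a call or moved a called value by over 1.5 times. In bulk libraries such as these, fewer cells that express a gene and less RNA per cell cannot be told apart.

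Upstream sequence was available for 6 of the 10 genes. The stretches of 3 genes that were lower in trSrebf1 cells are shown because Srebf1 is a transcription factor that binds short DNA motifs, and these are the lower members with an entry. Each runs 5′ to 3′ on the gene's strand, from 250 bases before to 50 after a transcript start of RefSeq (build GRCm38.p6), with motif matches in capitals. Adamts1 is at chr16:85803064-85803363 on the minus strand, Timp3 at chr10:86300162-86300461 on the plus strand, and Adam19, of which the start nearest to the annotated gene start is shown, at chr11:46055734-46056033 on the plus strand.
Adamts1: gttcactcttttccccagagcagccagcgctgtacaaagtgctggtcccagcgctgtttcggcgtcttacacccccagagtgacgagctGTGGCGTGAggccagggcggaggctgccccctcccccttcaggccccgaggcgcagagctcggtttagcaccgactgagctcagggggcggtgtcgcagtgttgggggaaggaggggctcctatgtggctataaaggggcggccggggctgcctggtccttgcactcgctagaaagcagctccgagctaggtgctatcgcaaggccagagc
Timp3: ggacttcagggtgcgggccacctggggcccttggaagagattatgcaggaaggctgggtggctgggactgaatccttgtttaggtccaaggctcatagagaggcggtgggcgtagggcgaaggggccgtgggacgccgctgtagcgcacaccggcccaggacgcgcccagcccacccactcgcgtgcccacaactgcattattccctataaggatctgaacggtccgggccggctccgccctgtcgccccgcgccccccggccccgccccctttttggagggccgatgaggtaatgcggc
Adam19: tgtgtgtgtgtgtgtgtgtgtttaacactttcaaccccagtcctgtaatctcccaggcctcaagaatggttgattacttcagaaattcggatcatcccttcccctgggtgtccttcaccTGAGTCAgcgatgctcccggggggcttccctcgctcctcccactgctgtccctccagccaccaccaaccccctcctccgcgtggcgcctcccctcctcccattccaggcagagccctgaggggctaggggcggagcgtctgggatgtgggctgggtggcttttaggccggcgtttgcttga

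The stretches were searched on both strands for TCACNCCAC, the core of the sterol regulatory element, CACGTG, an E-box that SREBP proteins can also bind, and TGANTCA, the AP-1 motif bound by Fos and Jun proteins. No pair of these motifs overlapped in the members. TCACNCCAC was found once, in Adamts1, on the strand opposite to the gene, 161 to 153 bases before the start, and stands in 1.24% of 32851 such stretches of the mouse genome. In Adam19 the shown stretch held TGAGTCA, 131 to 125 bases before the start, and that of another start held CACGTG. Plaur held TGACTCA, 69 to 63 bases before its start. CACGTG and TGANTCA stand in 7.15% and 7.81% of all stretches. The stretches of Timp1, Timp2 and Timp3 held none of the 3 motifs. A match is a run of letters only and shows no binding.

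The TIMPs did not move together. Timp3 (chromosome 10, 86300372 to 86349506, plus strand, GRCm38) had 255, 302 and 256 CPM in trSrebf1 libraries and 390, 555 and 524 CPM in control libraries. All 3 trSrebf1 libraries lay below the lowest control library, which was control replicate 1. The level was 1.81-fold lower in trSrebf1 cells (log2 fold change -0.85, SE 0.13, adjusted p = 7.84e-05), and the log2 fold change was -0.99 without control replicate 1. The 3' end of Timp3 lies wholly within an exon of Syn3 on the other strand over at least the last 500 bases, and the use of strand in the counting is not given in the sources used here. Syn3 itself was counted at 0, 0 and 1 tags in trSrebf1 and 2, 1 and 0 tags in control libraries.

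Timp1 (chromosome X, 20870166 to 20874735, plus strand), a TIMP that is induced in many injured tissues, had 88.0, 95.7 and 74.9 CPM in trSrebf1 and 84.7, 65.8 and 69.1 CPM in control libraries. The groups overlapped, and the log2 fold change of 0.24 did not pass the threshold (95% interval -0.06 to 0.53, adjusted p = 0.239). Timp2 (chromosome 11, 118301069 to 118355740, minus strand), which besides blocking matrix metalloproteinases takes part in the activation of pro-MMP2, had 536, 618 and 499 CPM in trSrebf1 and 490, 651 and 618 CPM in control libraries. Its log2 fold change was -0.09 (95% interval -0.35 to 0.17, adjusted p = 0.632). The intervals of Timp1 and Timp2 leave out a fall as large as that measured for Timp3.

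Ratios of tags within a library do not depend on how libraries are scaled. The ratio of Timp1 to Timp3 tags was 0.345, 0.317 and 0.292 in trSrebf1 and 0.217, 0.119 and 0.132 in control libraries. The ratio of Timp2 to Timp3, chosen after values were seen, was 2.10, 2.04 and 1.94 in trSrebf1 libraries against 1.25, 1.17 and 1.18 in control libraries. The ratio of Timp1 to Timp2 overlapped, at 0.164, 0.155 and 0.150 in trSrebf1 and 0.173, 0.101 and 0.112 in control libraries. Neither ratio to Timp3 overlapped between the groups, and control replicate 1, which was low for both Timp2 and Timp3 in CPM, lay close to the other control libraries in the ratio of Timp2 to Timp3. Of the other inhibitors on the list, Timp4 had 0 tags in every trSrebf1 library and 3, 2 and 0 in the control libraries and was not tested. Reck, which holds metalloproteinases in check at the membrane, reached the minimum count in 2 trSrebf1 and 3 control libraries. Its log2 fold change was 0.06 (95% interval -0.85 to 0.97), a direction that flipped with upper-quartile factors or total counts.

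Both ADAM genes were lower. Adam12 (chromosome 7, 133883199 to 134232146, minus strand), which in mice marks perivascular progenitors of collagen-producing cells after injury, had 37.0, 51.8 and 52.5 CPM in trSrebf1 and 182, 98.6 and 124 CPM in control libraries. Every trSrebf1 library lay well below the lowest control library. The log2 fold change was -1.52 (SE 0.22, adjusted p = 3.74e-04), and -1.24 without control replicate 1, the highest library. Adam19 (chromosome 11, 46055992 to 46147343, plus strand), a sheddase whose known substrates include neuregulin, had 21.5, 16.7 and 9.82 CPM in trSrebf1 and 28.8, 21.9 and 25.7 CPM in control libraries. The groups did not overlap, but the highest trSrebf1 library lay close to the lowest control library.

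The call of Adam19 was narrow, at an adjusted p of 0.0476 (log2 fold change -0.67, SE 0.24). DESeq2 gave an adjusted p of 0.0569. Leaving out any single control library ended the call, with an adjusted p of 0.127 for replicate 1 (log2 fold change -0.57), 0.0520 for replicate 2 and 0.0886 for replicate 3. So did leaving out trSrebf1 replicate 2 (0.0846) or replicate 3 (0.209, log2 fold change -0.40). All alternatives together spanned adjusted p-values of 0.0127 to 0.209. The 3' end of Adam19 overlaps an exon of Gm16033 on the other strand over 88 bases.

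**Figure D2:**
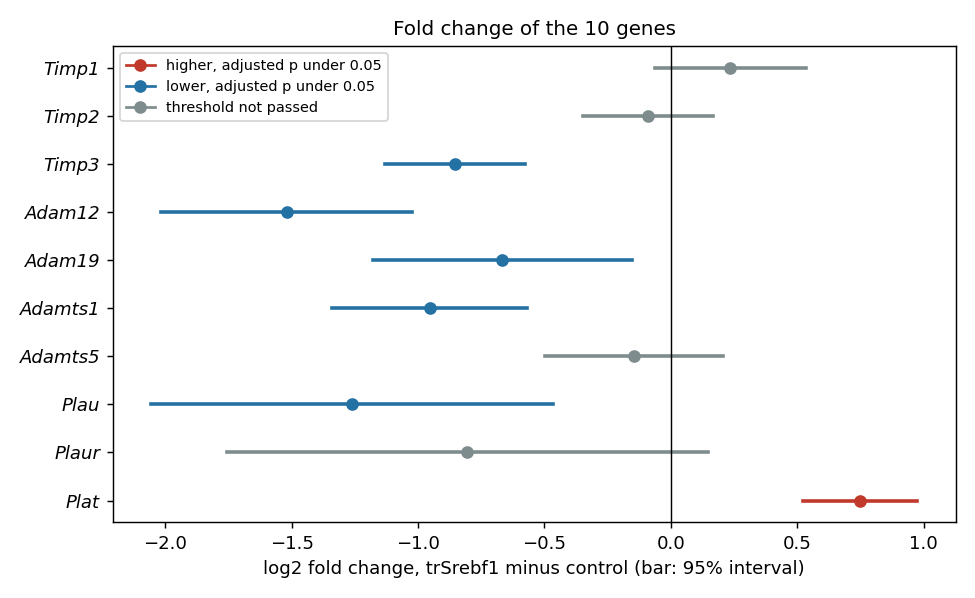
Log2 fold change, trSrebf1 minus control, of the 10 genes (points) with 95% intervals (bars) from the edgeR fit over 3 against 3 libraries. Adam12 lies lowest at -1.52, the intervals of Timp1, Timp2, Adamts5 and Plaur cross 0, and Plat at 0.75 is the gene above 0 whose interval does not.

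Among other ADAM genes and the ADAM regulators Rhbdf1 and Rhbdf2, 9 of 13 were tested. Of these 9, 3 were higher and 0 lower, beside 17.2% higher and 13.0% lower of all tested genes. The 3 were the regulator Rhbdf2 and the ADAM genes Adam33 and Adam22. At an unadjusted p under 0.05 in edgeR, 2 of the 9 were lower, and DESeq2 and limma-voom also called 0 lower after adjustment. The lower count was 1 with upper-quartile factors, with total counts, without Ctsd or without control replicate 1. It was 2 where low counts were not filtered. Under the filter of 5 CPM in 3 libraries 1 was higher. Rhbdf2, which carries Adam17 to the cell surface, was higher at 50.3 ± 2.50 CPM in trSrebf1 and 24.7 ± 2.23 CPM in control cells (SD, n = 3 each; adjusted p = 6.31e-05). Adam33 and Adam22, the second a receptor without protease activity, had 20, 16 and 23 and 38, 17 and 18 tags in trSrebf1 libraries, against 3, 5 and 2 and 4, 7 and 4 tags in control libraries. Their log2 fold changes were 2.39 (SE 0.49) and 2.12 (SE 0.47), and both entered the test through the trSrebf1 libraries alone. The widely expressed Adam15 and Adam9 had log2 fold changes of 0.06 (95% interval -0.33 to 0.46) and 0.13 (95% interval -0.32 to 0.57), that of Adam15 with a direction that flipped under upper-quartile factors or total counts.

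Adamts1 and Adamts5 are neighbours on chromosome 16, and both cut versican and aggrecan. Adamts1 (85793827 to 85803113, minus strand) had 23.0, 27.7 and 22.6 CPM in trSrebf1 and 58.5, 45.9 and 37.5 CPM in control libraries. It was 1.94-fold lower in trSrebf1 cells with no overlap (log2 fold change -0.95, SE 0.18, adjusted p = 6.06e-04), and its log2 fold change was -0.77 without control replicate 1. Adamts5 (85856173 to 85901828, minus strand) had 29.3, 32.0 and 29.5 CPM in trSrebf1 and 36.7, 35.9 and 27.8 CPM in control libraries. The groups overlapped, and its log2 fold change of -0.15 did not pass the threshold (95% interval -0.50 to 0.21, adjusted p = 0.565). The interval for Adamts5 does not reach the point estimate for Adamts1, but the difference between the genes was not tested.

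Other ADAMTS genes changed in both directions. Of 23 other ADAMTS and ADAMTS-like genes 16 were tested, 9 were lower and 3 higher, and the median log2 fold change was -1.08. Over all tested genes 13.0% were lower and 17.2% higher, with a median of -0.01. Of the 16, 5 reached the minimum count in all 3 control but not all 3 trSrebf1 libraries. For 1 it was reached in the trSrebf1 libraries alone. In the 9 that reached the minimum count in every library, 6 were lower and 2 higher, with a median of -1.08. The largest rise was that of Adamts14, which removes the N-terminal propeptide of fibrillar procollagens: 90.3, 99.0 and 90.9 CPM in trSrebf1 libraries against 6.29, 5.93 and 11.1 CPM in control libraries (log2 fold change 3.57, SE 0.20, adjusted p = 5.52e-10). Adamts2, the main enzyme of that same step, was lower, with 35.1, 36.3 and 25.8 CPM in trSrebf1 and 77.9, 69.1 and 58.5 CPM in control libraries (log2 fold change -1.08, SE 0.17, adjusted p = 8.34e-05). These procollagen N-proteinase genes moved in opposite directions in the same libraries.

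The versican-cutting Adamts15 was lower at 17.7 ± 1.56 CPM in trSrebf1 and 69.2 ± 19.8 CPM in control cells (SD, n = 3 each), and its log2 fold change was -1.96 (SE 0.20). Adamts10 and Adamtsl5, which associate with fibrillin microfibrils, were lower, with log2 fold changes of -1.08 (SE 0.19) and -1.19 (SE 0.16). Papln, a matrix protein with ADAMTS-like domains, had 38, 32 and 29 tags in trSrebf1 and 7, 2 and 1 tags in control libraries, and its log2 fold change of 3.14 (SE 0.49) comes from a test it entered through trSrebf1 libraries alone. Without control replicate 1 it was 4.26. Of the genes named after their values were seen, Adamts13, the protease of von Willebrand factor, rose by 1.42 (SE 0.34) on the log2 scale, and Adamts4, Adamts6, Adamts9, Adamtsl1 and Adamtsl3 were lower, with log2 fold changes of -1.55, -1.08, -1.32, -1.99 and -1.12. For Adamts6, Adamts9 and Adamtsl1 the minimum count was reached in 3 control but only 2 trSrebf1 libraries. Adamts6 lost its call without control replicate 3 or trSrebf1 replicate 2, and Adamts9 without control replicate 2 or trSrebf1 replicate 1. Adamts4 is a further aggrecan-cutting enzyme. Adamts12 and Adamts16 did not pass the threshold, with 95% intervals of -0.20 to 0.43 and -0.89 to 0.80.

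Of the plasminogen activators, Plat rose and Plau fell. Plat (chromosome 8, 22757727 to 22782844, plus strand) had 466, 468 and 403 CPM in trSrebf1 and 269, 251 and 276 CPM in control libraries. The groups were far apart relative to their spread, at a 1.68-fold higher level in trSrebf1 cells (log2 fold change 0.75, SE 0.11, adjusted p = 3.10e-05), and the log2 fold change was 0.76 without control replicate 1. Plau (chromosome 14, 20836660 to 20843385, plus strand) was rare, with 14, 12 and 8 tags in trSrebf1 and 19, 21 and 36 tags in control libraries. In CPM these were 3.01, 3.05 and 1.83 in trSrebf1 and 4.98, 5.42 and 8.49 in control libraries.

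The log2 fold change of Plau was -1.26 (SE 0.38, adjusted p = 0.0164), and -1.40 without control replicate 1. Leaving out control replicate 3 ended the call (log2 fold change -0.99, adjusted p = 0.111), as did leaving out trSrebf1 replicate 3 (-1.05, adjusted p = 0.0719). All alternatives together spanned 0.0108 to 0.111. Plaur (chromosome 7, 24462484 to 24475968, plus strand) had 7 tags in each trSrebf1 library and 13, 10 and 11 tags in the control libraries. Its groups did not overlap, but with 21 and 34 tags in all in trSrebf1 and control cells the log2 fold change of -0.80 had a 95% interval of -1.76 to 0.15 (adjusted p = 0.203). This interval holds both 0 and the value measured for Plau.

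Within libraries the ratio of Plau to Plat tags was 0.00646, 0.00650 and 0.00453 in trSrebf1 and 0.0185, 0.0216 and 0.0308 in control libraries. The groups did not overlap, and Plat tags were far more frequent than Plau tags in every library. Tags count transcripts, and no enzyme activity was measured.

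**Figure D3:**
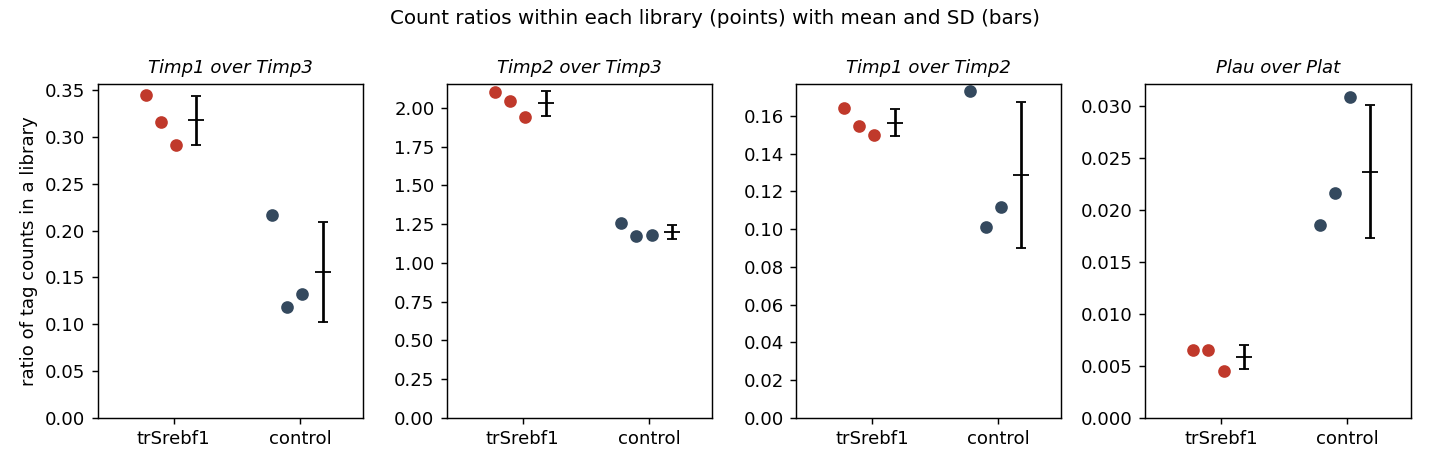
Ratios of tag counts of gene pairs within each library (points, trSrebf1 left and control right) with mean and SD over 3 libraries, on linear axes that start at 0. The ratios of Timp1 and of Timp2 to Timp3 are higher, and that of Plau to Plat lower, in every trSrebf1 library than in any control library, while the ratio of Timp1 to Timp2 overlaps.

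Of 15 other genes of the plasminogen system 9 were tested, of which 3 were lower and 0 higher. Over all tested genes 13.0% were lower and 17.2% higher, or 30.2% in either direction. Of the 9, 0 were higher also at an unadjusted p under 0.05 in edgeR, and 0 in DESeq2 and limma-voom. Among the lower genes were Anxa2, which binds plasminogen and Plat at the cell surface, at 46.0 ± 3.66 CPM in trSrebf1 and 91.6 ± 15.8 CPM in control cells (SD, n = 3 each; log2 fold change -0.99, adjusted p = 5.64e-05), and Mrc2, a collagen uptake receptor that associates with the urokinase receptor, at 40.1 ± 1.46 CPM in trSrebf1 and 57.6 ± 7.57 CPM in control cells (log2 fold change -0.52, adjusted p = 0.0125). Mrc2 lost its call when control replicate 3 (adjusted p = 0.0788) or trSrebf1 replicate 1 (0.0503) was left out, and its alternatives spanned 0.00523 to 0.0788. Lrp1, which clears activator and inhibitor complexes, had a log2 fold change of -0.06 (95% interval -0.30 to 0.19). Serpine2, an inhibitor of the activators, had 0.01 (95% interval -0.40 to 0.42), a direction that flipped with upper-quartile factors, total counts or a table without Ctsd. Plasminogen itself (Plg) was counted at 0 tags in the trSrebf1 libraries and 0, 2 and 0 in the control libraries.

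**Figure D4:**
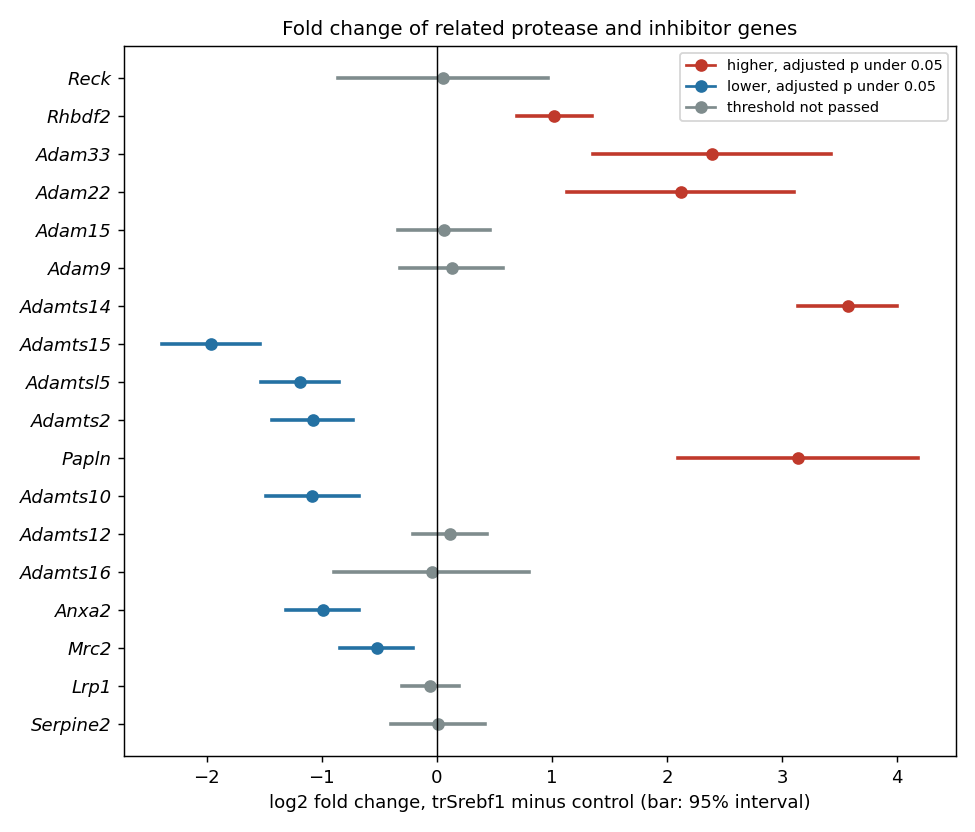
Log2 fold change, trSrebf1 minus control, of the related genes chosen by p-value and level (points) with 95% intervals (bars) over 3 against 3 libraries. Genes are grouped as membrane inhibitor, ADAM genes with the regulator Rhbdf2, ADAMTS and plasminogen system genes. Of the genes plotted, Adamts14 lies highest at 3.57 and Adamts15 lowest at -1.96, and the intervals of those that did not pass the threshold cross 0.

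Other signals moved with these genes. Immediate early genes are induced within minutes by growth factors or by the digestion of tissue. Of 20 tested genes on a list of immediate early and tissue digestion genes, 17 were lower and 0 higher in edgeR. Over all tested genes 13.0% were lower and 17.2% higher. Jun and the heat shock genes Hspa1a and Hspa1b did not pass the threshold, with log2 fold changes of -0.21, -0.14 and -0.09. Of these 20, 0 were higher also at an unadjusted p under 0.05, and their median log2 fold change was -0.77. Their summed level ranged from 25359 to 30582 CPM in trSrebf1 and from 37426 to 45203 CPM in control libraries (exact two-sided permutation p = 0.1, the smallest that 3 against 3 libraries allow, 0.333 adjusted over 10 marker lists). Fos was at 4027 and 6661 CPM in trSrebf1 and control cells. The summed level of 6 pericyte and smooth muscle markers was 216 ± 20.2 CPM in trSrebf1 and 95.1 ± 1.33 CPM in control cells (SD, n = 3 each), most of it from Cspg4 and Des. The list did not move as 1: of 4 tested markers Cspg4 and Des were higher, Myh11 was lower (log2 fold change -1.14, adjusted p = 0.0497) and Notch3, at -0.51, did not pass the threshold, and Rgs5 was at 0.0761 CPM in trSrebf1 and 0.0860 CPM in control cells. The part of these signals in the changes of Timp3, Adam12, Adamts1 and Plau was not tested. Ctsd, a cathepsin that took 6.53% to 6.81% of tags in trSrebf1 and 0.860% to 0.953% in control libraries, was left out in an alternative fit, and all 6 calls of the 10 genes were kept.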

How the data were processed

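The authors deposited whole-number counts of tags per gene symbol, 1 table per library, unpooled and not normalized. Per the submitters' processing notes, Bowtie2 2.2.5 and build mm10 were used in some role. How tags were counted, with which annotation and strand setting, is not given in the sources used here, so tags of overlapping genes can be assigned in ways that cannot be checked. The test was the quasi-likelihood test of edgeR 4.0.16, run under R 4.3.3 (filterByExpr with minimum count 10 and minimum total 15, TMM factors, robust glmQLFit, glmQLFTest, group as the only term, prior count 0.125). P-values were two-sided and adjusted over 10194 genes, with a threshold of 0.05. The SE of a log2 fold change is its size over the root of F, and intervals are 95%. CPM uses TMM-scaled library sizes. Alternatives were upper-quartile factors, total counts, DESeq2 1.42.0, limma-voom (limma 3.58.1), no filter, 5 CPM in 3 libraries, a replicate block, a table without Ctsd and each library left out. Amplified tags carry no molecular identifiers, so depth gives only counting precision. Positions come from GENCODE M21 (GRCm38, the same assembly as mm10), and overlap and near-identical sequence were checked over the last 500 bases of transcripts. The members and gene lists were chosen with earlier results of these data known. Named were all 10 members, Srebf1, Ctsd, and of each related list up to 6 called genes by smallest p and 2 uncalled genes by highest level. Adamts13, Adamts4, Adamts6, Adamts9, Adamtsl1 and Adamtsl3 were named after their values were seen. A gene of the plasminogen list that this rule names is not reported here.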

Additional observations from a re-analysis of the deposited data

How the results depend on the processing

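Of the 10 genes, Timp1, Timp2, Timp3, Adam12, Adamts1, Adamts5, Plaur and Plat kept direction and side of the threshold under every alternative that gave a value. Adam19 fell short of it with DESeq2, at a log2 fold change of -0.67, and ranged from -0.94 to -0.40 with a library left out. Plau ranged from -1.40 to -0.99, and was not tested under the filter of 5 CPM in 3 libraries. Of the 10 genes, 3 to 5 were called lower with a library left out. With a replicate block 5 were lower and 1 higher, as without it. Replicate numbers are the only link between libraries: same-numbered libraries had correlations of 0.0026, -0.12 and -0.063 of their deviations from the group means. The block called 1646 genes higher and 1174 lower, against 1755 and 1328.

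Genes near 0 changed direction. With total counts Reck was at -0.0245, Adam15 at -0.0071 and Serpine2 at -0.0728, and with upper-quartile factors at -0.0229, -0.0195 and -0.0688 in that order. Serpine2 was also at -0.0042 with 5 CPM in 3 libraries and -0.0039 without Ctsd. With a library left out, Reck ranged from -0.34 to 0.42, Adam15 from -0.0852 to 0.24, Adam9 from -0.0845 to 0.27, Adamts12 from -0.0053 to 0.20, Adamts16 from -0.33 to 0.32, Lrp1 from -0.14 to 0.0562 and Serpine2 from -0.18 to 0.16. The call of Adamts6 was lost without control replicate 3 (adjusted p = 0.0603) or trSrebf1 replicate 2 (0.0712), and that of Adamts9 without control replicate 2 (0.0790) or trSrebf1 replicate 1 (0.0833). The cause of these changes was not tested. Depth limits Plau and Plaur, with 34 and 21 tags in all in trSrebf1 libraries.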

Other observations

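Adamtsl5 had 237, 148 and 273 tags in trSrebf1 libraries and 456 tags in each of the 3 control libraries. Among genes with 100 or more tags, 0 had the same count in all 3 trSrebf1 libraries, and 1, Adamtsl5, did in the control libraries. A2m, which encodes a broad protease inhibitor of plasma, had 0 tags in every trSrebf1 library and 3, 3 and 4 in the control libraries, and Serpinb2, an inhibitor of urokinase, had 0 tags in every trSrebf1 library and 2, 3 and 0 in the control libraries. Both were too rare to test.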
